A study of Mus musculus with 8 samples.

Results

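The unfolded protein response and the integrated stress response are linked programmes that cells use when proteins misfold in the endoplasmic reticulum (ER) or when translation is restricted. Described here are 31 genes of these programmes, listed by name as ER chaperone genes and genes of the ATF4-CHOP pathway. All 31 were among the 23358 genes of the count table, and 30 passed the filter on low counts, with Atf3 the exception. They were taken by name, with no threshold on a measured value. By role they are 3 stress sensors, 2 transcription factors that relay the signal (Xbp1 and Atf4), 14 ER chaperones and folding factors, 4 genes of ER-associated degradation and 8 target genes of the ATF4-CHOP branch.

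The samples were hematopoietic stem cells taken straight from mouse bone marrow and sorted as Lin-Sca+Kit+CD48-CD150+. There were 3 libraries from wild type cells, 3 labelled Huwe1 KO (Mx1-Cre) and 2 labelled Huwe1 KO (Vav-Cre). Huwe1 encodes a ubiquitin ligase. Mx1-Cre deletes after induction, and it can act in many tissues. Vav-Cre deletes constitutively in blood cells. The treatment entry of every sample states that there was none, the labels give no inducing agent, strain, age or Cre line for wild type, and they do not say that libraries came from separate animals. P-values therefore measure the spread between these libraries, which may be technical, and the loss of Huwe1 cannot be told apart from other effects of a Cre line or of its induction.

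In this system 3 proteins in the ER membrane sense unfolded protein. IRE1, encoded by Ern1, splices the Xbp1 messenger RNA, ATF6 is cut to release a transcription factor, and PERK, encoded by Eif2ak3, phosphorylates the translation factor eIF2. XBP1 and ATF6 raise transcription of chaperones, whereas eIF2 phosphorylation lowers general translation and favours that of ATF4, which raises amino acid synthesis genes and, through CHOP, genes that act on survival. Hematopoietic stem cells are known for a low rate of protein synthesis and for sensitivity to disturbed protein folding.

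Total counts were 28689765 to 33202926 per library. Levels are CPM, that is counts scaled to a common library size with TMM factors, and a fold change is on the log2 scale with its standard error (SE) from edgeR. A gene was called when its edgeR p, adjusted over all 14086 genes tested, was below 0.05. The level of Huwe1 was 398 to 434 CPM in wild type, 399 to 444 with Mx1-Cre and 445 and 490.2 with Vav-Cre, and a count per gene does not check the loss of some exons. All 9 markers of the sorted cells passed the filter. Their summed level was 3916 to 4419 CPM in wild type, 2697 to 4397 with Mx1-Cre and 4278 and 4293 with Vav-Cre. Of the 9, 2 were called lower with both lines averaged, 3 lower in Mx1-Cre and 1 lower in Vav-Cre. For Vav-Cre minus Mx1-Cre 2 were called higher. The shares of all genes called in either direction were 2.65%, 2.49%, 0.511% and 0.170% in that order. In bulk libraries, fewer cells of a type and less RNA per cell cannot be told apart. Exons of 8 members share bases with another gene in the GENCODE vM21 annotation, the longest stretch being 415 bases between Hsp90b1 and 1810014B01Rik. The others are Pdia3, Pdia4, Pdia6, Manf, Syvn1, Ppp1r15a and Ddit3, which shares 68 bases with Mars. Since the protocol marks no strand, reads of these stretches cannot be assigned to 1 gene.

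None of the 30 members was called by edgeR in any comparison. The background, the share of all tested genes called, was 2.65% with both knockout lines averaged, 2.49% for Mx1-Cre, 0.511% for Vav-Cre against wild type and 0.170% for Vav-Cre minus Mx1-Cre. DESeq2, run as an alternative, called 3, 2, 6 and 4 members in the same order, against backgrounds of 6.77%, 7.40%, 4.21% and 3.28%. An unadjusted edgeR p under 0.05 was reached by 8 members lower and 0 higher with both lines averaged, where 10.4% of all genes were lower and 6.11% higher at that level. In Mx1-Cre libraries 3 were lower and 1 higher (backgrounds 10.5% and 6.17%). In Vav-Cre libraries 11 were lower and 1 higher (7.64% and 5.76%), and for Vav-Cre minus Mx1-Cre 8 were lower and 1 higher (5.96% and 7.31%). The counts of lower members were highest in the Vav-Cre comparison, where edgeR called none and DESeq2 called Creld2, Hspa5, Sdf2l1, Herpud1, Asns and Phgdh.

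**Figure D1:**
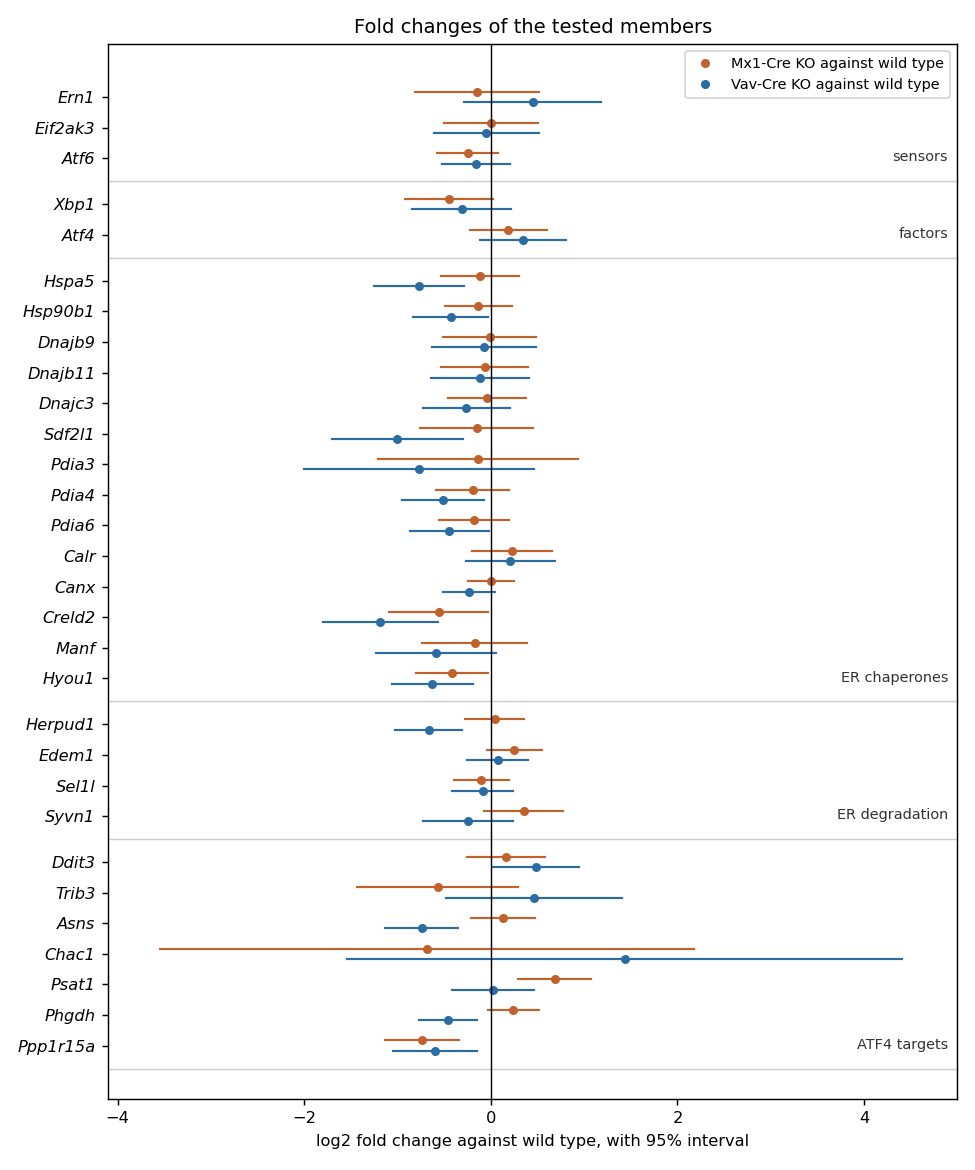
Log2 fold change against wild type of each tested member (points) with its 95% interval (lines), in Mx1-Cre (orange) and Vav-Cre (blue) libraries, grouped by role. Points of 13 of the 14 ER chaperones lie left of 0 in Vav-Cre libraries, whereas those of the ATF4 targets lie on both sides, and the widest intervals belong to the sparsely counted Chac1.

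No sensor reached an unadjusted p under 0.05 in any comparison. Atf6 had 60.3, 53.2 and 53.4 CPM in wild type, 49.3, 51.3 and 40.1 with Mx1-Cre and 48.3 and 51.5 with Vav-Cre. All 5 knockout libraries thus lay below all 3 wild type ones, by a small margin (log2 fold change with both lines averaged -0.20 ± 0.13, adjusted p = 0.514). Eif2ak3 had 26.6, 30.03 and 34.5 CPM in wild type, 35.9, 20.1 and 35.2 with Mx1-Cre and 27.7 and 31.1 with Vav-Cre, with the groups overlapping. Its difference was -0.02 with a 95% interval of -0.48 to 0.43. Ern1 had 9.75 to 18.8 CPM in wild type, 8.38 to 15.2 with Mx1-Cre and 17.7 and 21.4 with Vav-Cre (0.45 ± 0.33 in Vav-Cre, adjusted p = 0.616). Both knockout groups overlapped wild type, but the Vav-Cre values of Ern1 lay above all Mx1-Cre ones (Vav-Cre minus Mx1-Cre 0.59 ± 0.33, adjusted p = 0.475).

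Of the transcription factors, Xbp1 had 118, 169.6 and 184 CPM in wild type, 103.1, 103.0 and 141 with Mx1-Cre and 152 and 101 with Vav-Cre. Wild type 1 lay among the knockout libraries, and the averaged difference was -0.38 ± 0.19 (adjusted p = 0.362). Counts per gene do not separate spliced from unspliced Xbp1. Atf4 had 98.5, 123 and 143 CPM in wild type, 149, 106 and 161 with Mx1-Cre and 143 and 168 with Vav-Cre. Its values ran in the opposite direction with overlap (0.27 ± 0.17, adjusted p = 0.493). ATF4 is controlled mainly in translation, which these counts do not measure.

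Of the 14 ER chaperones and folding factors, most had lower values in the Vav-Cre libraries, with Calr the exception and Dnajb9 and Dnajb11 nearly level, and edgeR called none. With both lines averaged, 13 of 14 fold changes were negative with a median of -0.33, where 7037 of all 14086 tested genes were negative with a median of 0.00. In Mx1-Cre libraries 12 were negative with a median of -0.14, and in Vav-Cre libraries 13 with a median of -0.48. The counts at an unadjusted p under 0.05 were 5, 2 and 7, all lower, where 10.4%, 10.5% and 7.64% of all genes were lower. The Mx1-Cre count of 2 of 14 was close to that share. DESeq2 called 2, 0 and 3 of the 14 lower, against 6.77%, 7.40% and 4.21% of all genes in either direction.

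The largest difference was that of Creld2, which encodes an ER-resident protein disulfide isomerase induced by ER stress. Its levels were 34.7, 58.0 and 65.2 CPM in wild type, 29.6, 34.0 and 43.7 with Mx1-Cre and 22.8 and 23.5 with Vav-Cre. Both Vav-Cre libraries lay below every other library, and the Mx1-Cre range overlapped wild type 1. The log2 fold change was -1.18 ± 0.28 in Vav-Cre (edgeR adjusted p = 0.0961, DESeq2 0.00167), -0.56 ± 0.24 in Mx1-Cre (edgeR 0.274) and -0.87 ± 0.21 with both averaged (edgeR 0.0580, DESeq2 0.00371). Without wild type 1, the averaged difference of Creld2 was -1.10 and passed (edgeR adjusted p = 0.0341), as it did without Mx1-Cre 3 (-0.95, adjusted p = 0.0459). It did not pass without wild type 2 or 3 or without Mx1-Cre 1 or 2.

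Hspa5, which encodes BiP, the main Hsp70 chaperone of the ER and the protein that holds the sensors inactive, had 879, 1117 and 1078 CPM in wild type. Its levels were 743, 1142 and 945 CPM with Mx1-Cre and 709 and 492 with Vav-Cre. The Mx1-Cre libraries spanned the wild type range, while both Vav-Cre libraries lay below it. The difference in Vav-Cre libraries was -0.77 ± 0.22 (edgeR adjusted p = 0.152, DESeq2 0.0200), and Vav-Cre minus Mx1-Cre was -0.65 ± 0.22 (edgeR adjusted p = 0.244).

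Sdf2l1, a cofactor of BiP, had 13.5, 28.3 and 18.3 CPM in wild type, 16.6, 15.9 and 21.8 with Mx1-Cre and 10.6 and 9.39 with Vav-Cre. The Vav-Cre pair lay lowest (-1.0 ± 0.32, edgeR adjusted p = 0.203, DESeq2 0.0469), and wild type 1 was nearest to it. Hyou1, an Hsp110-class chaperone that serves as exchange factor for BiP, had 80.9, 81.9 and 101 CPM in wild type, 77.9, 51.9 and 67.9 with Mx1-Cre and 53.1 and 60.6 with Vav-Cre. All 5 knockout libraries of Hyou1 were below all wild type ones (averaged -0.52 ± 0.15, edgeR adjusted p = 0.112, DESeq2 0.0363).

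Of all members, Hyou1, Atf6 and Ppp1r15a were the 3 for which the 5 knockout libraries lay wholly below wild type, and 0 lay wholly above, where 7.28% of all tested genes lay wholly below and 4.41% wholly above. In Vav-Cre libraries 7 of the 14 chaperones lay wholly below wild type and 0 above, against 17.1% and 15.6% of all genes. In Mx1-Cre libraries 1 lay wholly below and 0 above, against 14.8% and 10.9%. For the chaperones the share in Vav-Cre libraries was above that of all genes and the share in Mx1-Cre libraries was not. This contrast was not tested. The list was chosen with earlier results of these data known, and the Vav-Cre share rests on a single pair of libraries.

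The disulfide isomerase gene Pdia4 had 232.5, 240.1 and 234 CPM in wild type, 186, 260.4 and 172 with Mx1-Cre and 189 and 141 with Vav-Cre. Pdia6, of the same family, had 539, 642 and 599.9 CPM in wild type, 496, 628 and 447 with Mx1-Cre and 511 and 362 with Vav-Cre. Both genes lay below wild type in the Vav-Cre pair, while Mx1-Cre overlapped it. Their Vav-Cre differences were -0.51 ± 0.20 and -0.44 ± 0.19 (edgeR adjusted p = 0.288 and 0.353). Hsp90b1, which encodes the ER Hsp90 paralog GRP94, had 592, 803 and 827 CPM in wild type, 665, 668 and 693 with Mx1-Cre and 636 and 463 with Vav-Cre, with wild type 1 inside the knockout range (-0.43 ± 0.18 in Vav-Cre). Manf, a secreted ER stress factor, ranged from 70.02 to 127 CPM in wild type, 68.9 to 126 with Mx1-Cre and 67.1 and 73.2 with Vav-Cre (-0.59 ± 0.29).

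Pdia3, the isomerase that works with calnexin and calreticulin, varied more than any other tested member except Chac1. It had 370.0, 321 and 187 CPM in wild type, 270.3, 447 and 81.0 with Mx1-Cre and 215 and 129 with Vav-Cre, with its highest and lowest values, 5.52-fold apart, both in Mx1-Cre libraries. Its difference in Vav-Cre libraries had a 95% interval of -2.00 to 0.46. Calr, which encodes the lectin chaperone calreticulin, had the only positive averaged fold change of the 14 (0.22 ± 0.17), with 617, 872 and 944 CPM in wild type, 976, 727 and 1141 with Mx1-Cre and 928 and 946 with Vav-Cre. Canx, the gene of the membrane lectin calnexin, varied least of the 14, with 1167.5 to 1313 CPM in wild type, 1189.5 to 1302 with Mx1-Cre and 985 and 1101 with Vav-Cre.

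The DnaJ co-chaperones of BiP differed little. Dnajb9 had 33.0 to 55.3 CPM in wild type, 40.2 to 54.2 with Mx1-Cre and 36.0 and 51.7 with Vav-Cre, and the 95% interval of its averaged difference was -0.49 to 0.41. For Dnajb11 that interval was -0.51 to 0.33, and for Dnajc3, which encodes the PERK inhibitor p58IPK, it was -0.52 to 0.22.

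Libraries of 1 group also differed in the chaperones. Wild type 1 was the lowest of the wild type libraries for 12 of the 14, with a median log2 ratio to the wild type mean of -0.26, against 0.13 in wild type 2 and 0.13 in wild type 3. In the knockout groups the lowest library varied from gene to gene. Mx1-Cre 1, 2 and 3 were lowest for 5, 5 and 4 of the 14, and Vav-Cre 1 and 2 for 5 and 9. The median ratio was -0.16, -0.13 and -0.06 in Mx1-Cre 1, 2 and 3 and -0.32 and -0.63 in Vav-Cre 1 and 2. Wild type 1 was therefore lower than each Mx1-Cre library on this measure, and Vav-Cre 1 was close to wild type 1. Without Vav-Cre 1 the median chaperone difference from wild type was -0.67 in Vav-Cre, and without Vav-Cre 2 it was -0.34. In Mx1-Cre that median was -0.23 without wild type 1, -0.04 without wild type 2, -0.09 without wild type 3 and -0.08 without Mx1-Cre 1.

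**Figure D2:**
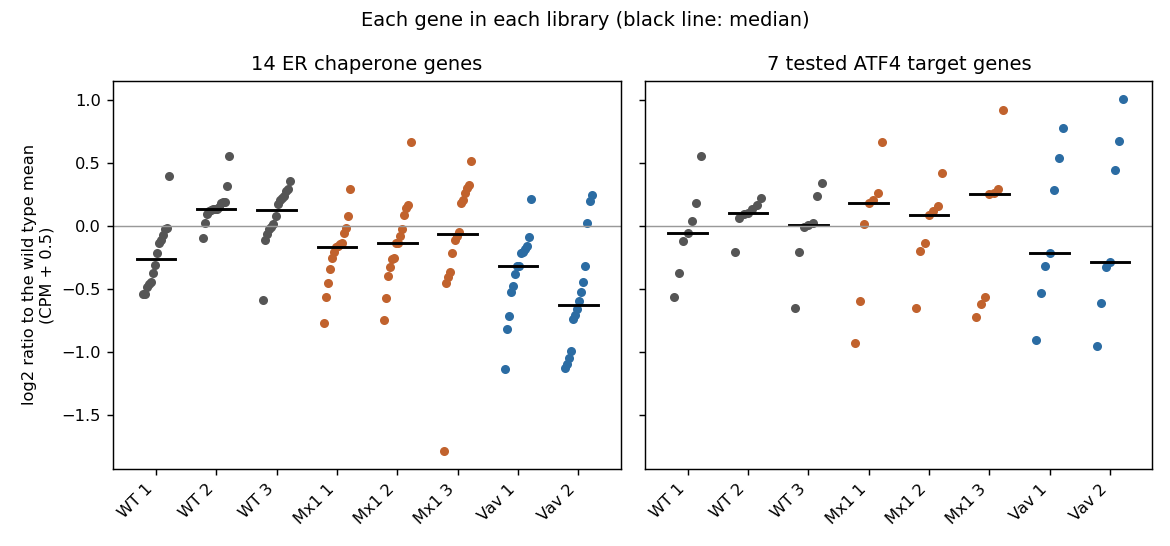
Log2 ratio of each gene to its wild type mean (CPM plus 0.5) in each library, for the 14 ER chaperones (left) and the 7 tested ATF4 targets (right), with the median as a black line. The chaperone medians of the Vav-Cre libraries, -0.32 and -0.63, are the lowest of the 8, and the low point in Mx1-Cre 3 is Pdia3.

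A feature that many chaperones share is the ER stress response element in the promoter, the sequence at which ATF6 acts together with the factor NF-Y. Promoters of 28 of the 31 members were found in the RefSeq table (build GRCm38.p6, 250 bases before to 50 after the start), among them 12 chaperones. The letters CCAAT and CCACG, separated by 9 bases of any kind, were searched on both strands. They were found in 7 of these 12 promoters (Hspa5, Hsp90b1, Calr, Canx, Creld2, Dnajc3 and Pdia6) and in that of the degradation gene Syvn1, against 39 of all 32851 promoters (0.119%). They were found in 0 of 8 ATF4 targets. The 4 stretches below show the element in Creld2, Hspa5 and Pdia6, which had low values in Vav-Cre libraries, and in Calr, which had not, on the strand of the gene, with the fixed letters in capitals. In Creld2 and Calr it reads as the reverse complement.
Hspa5 (chr2:34772020-34772048, plus strand): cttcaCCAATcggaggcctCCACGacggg
Creld2 (chr15:88819515-88819543, plus strand): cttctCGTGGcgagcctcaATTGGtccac
Pdia6 (chr12:17266486-17266514, plus strand): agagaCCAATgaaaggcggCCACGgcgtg
Calr (chr8:84847070-84847098, minus strand): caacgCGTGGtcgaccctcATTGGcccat
The element begins 65, 126, 98 and 162 bases before the start in these genes. The 7 chaperones with a match had a median difference of -0.43 in Vav-Cre libraries and the 5 without one -0.51. Those 5 include Dnajb11, which holds the second form of the element described below.

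Among the degradation genes, Herpud1 had the largest difference. It encodes a ubiquitin-like domain protein of the ER membrane that organises the complex extracting misfolded proteins. Its levels were 217, 222 and 216 CPM in wild type, 218, 257 and 199.9 with Mx1-Cre and 156 and 119 with Vav-Cre. The 3 wild type values were close together, the Mx1-Cre values lay around them, and both Vav-Cre values lay below all others. The difference was -0.67 ± 0.16 in Vav-Cre (edgeR adjusted p = 0.105, DESeq2 0.00707) and 0.04 ± 0.14 in Mx1-Cre libraries. Vav-Cre minus Mx1-Cre was -0.71 ± 0.16 (edgeR adjusted p = 0.139, DESeq2 0.00418), with -0.91 without Vav-Cre 1 (edgeR adjusted p = 0.0358) and -0.53 without Vav-Cre 2 (0.515). Leaving out either library leaves a single Vav-Cre library, which these fits assume to vary like the other groups, here and for the genes below.

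The Herpud1 promoter was the only 1 of the 28 to hold both a chaperone-type and an ATF4-type element. The first is the second form of the ER stress response element, the letters ATTGG and CCACG with 1 base between them, found in 12 of all promoters (0.0365%) and also in Dnajb11. The other is the core of the C/EBP-ATF response element, TGATGNAA, found in 1304 of all promoters (3.97%) and here as its reverse complement.
Herpud1, ER stress element (chr8:94386372-94386392, plus strand): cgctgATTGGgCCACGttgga
Herpud1, C/EBP-ATF element (chr8:94386312-94386329, plus strand): gcgggTTgCATCAgcccg
They begin 52 and 112 bases before the start, and the 2 matches do not overlap.

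The ubiquitin ligase gene Syvn1, which encodes HRD1, had 26.3, 22.1 and 24.7 CPM in wild type, 27.9, 38.2 and 27.2 with Mx1-Cre and 18.4 and 22.7 with Vav-Cre. All Mx1-Cre values lay above wild type, by a small margin (0.35 ± 0.19, adjusted p = 0.403), and Vav-Cre overlapped it. Edem1, a lectin that recognises trimmed glycans, had 60.3 to 68.1 CPM in wild type, 68.2 to 83.5 with Mx1-Cre and 67.2 and 69.9 with Vav-Cre, so that Mx1-Cre 2 lay just above the highest wild type value (0.25 ± 0.13 in Mx1-Cre, adjusted p = 0.383). Sel1l, the adaptor of HRD1, had an averaged difference of -0.10 with a 95% interval of -0.36 to 0.17.

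The ATF4-CHOP targets had fold changes in both directions. Of the 7 tested, 3 fold changes were positive and 4 negative with both lines averaged (median -0.06), and 4 were positive and 3 negative in Mx1-Cre (median 0.13) as in Vav-Cre libraries (median 0.03). With so few genes on either side of 0 the median depends on the list. Without Ddit3 and Atf3 it was -0.22 in Mx1-Cre and -0.22 in Vav-Cre.

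Ppp1r15a, which encodes GADD34, the phosphatase subunit that reverses eIF2 phosphorylation, had low values in both knockout lines. Its levels were 129, 98.0 and 115 CPM in wild type, 59.2, 72.0 and 73.5 with Mx1-Cre and 60.4 and 90.2 with Vav-Cre. All 5 knockout values lay below all 3 wild type values. The averaged difference was -0.67 ± 0.16 (edgeR adjusted p = 0.0537, DESeq2 0.00568), that in Mx1-Cre libraries -0.74 ± 0.18 (0.0596 and 0.00654) and that in Vav-Cre libraries -0.60 ± 0.20 (0.219 and 0.102). Without Vav-Cre 2 the averaged value of Ppp1r15a was -0.83 and passed (edgeR adjusted p = 0.0270). Its Mx1-Cre value stayed at -0.74 and passed without Vav-Cre 1 or 2, which enter that comparison through the shared spread (edgeR adjusted p = 0.0270 and 0.0275). Neither the averaged nor the Mx1-Cre value of Ppp1r15a passed in edgeR without wild type 1, 2 or 3 or without Mx1-Cre 1, 2 or 3. Ppp1r15a is also induced by handling and by growth signals. Immediate early genes, counted from a list of 11, had a summed level of 679 to 728 CPM in wild type, 497 to 561 with Mx1-Cre and 409 and 825 with Vav-Cre, with 0 of 11 called by edgeR in either line (3 and 1 at an unadjusted p under 0.05, DESeq2 0 and 1). Their part in the Ppp1r15a values was not tested.

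The amino acid synthesis genes of the branch had lower values in Vav-Cre than in every Mx1-Cre library, though none passed in edgeR between the lines. Of the 7 tested targets, 3 lay wholly lower and 2 wholly higher in Vav-Cre than in Mx1-Cre libraries. Of all 14086 genes 1690 and 1940 did. Psat1 and Phgdh encode enzymes of serine synthesis and Asns encodes asparagine synthetase. Psat1 had 190.3, 223 and 208 CPM in wild type, 328, 277 and 393 with Mx1-Cre and 252 and 169.6 with Vav-Cre. All Mx1-Cre values lay above wild type, and the Vav-Cre values lay on either side of it. The difference was 0.68 ± 0.18 in Mx1-Cre (edgeR adjusted p = 0.0765, DESeq2 0.00574) and 0.03 ± 0.20 in Vav-Cre libraries. Vav-Cre minus Mx1-Cre was -0.66 ± 0.20 for Psat1 (edgeR adjusted p = 0.215, DESeq2 0.0435). The Mx1-Cre difference of Psat1 did not pass in edgeR without wild type 1, 2 or 3 or without Mx1-Cre 1 or 3. Without Mx1-Cre 2 the Mx1-Cre difference of Psat1 was 0.81 and passed (edgeR adjusted p = 0.0452), and it also passed at 0.69 without Vav-Cre 1 or 2 (0.0363 and 0.0359).

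Phgdh had 166, 179 and 170.5 CPM in wild type, 206, 191 and 211 with Mx1-Cre and 138 and 112 with Vav-Cre. The groups did not overlap, with Mx1-Cre above and Vav-Cre below wild type. Vav-Cre minus Mx1-Cre was -0.70 ± 0.14 (edgeR adjusted p = 0.0968, DESeq2 0.000199), with -0.86 without Vav-Cre 1 (edgeR adjusted p = 0.0271) and -0.56 without Vav-Cre 2 (0.378), each resting on 1 Vav-Cre library. Against wild type the differences of Phgdh were 0.24 ± 0.12 in Mx1-Cre and -0.46 ± 0.14 in Vav-Cre (edgeR adjusted p = 0.370 and 0.190, DESeq2 0.280 and 0.0395).

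Asns had 189, 206 and 159 CPM in wild type, 186, 199.8 and 221 with Mx1-Cre and 126 and 94.4 with Vav-Cre. The Vav-Cre pair lay below all other libraries. The difference was -0.74 ± 0.18 in Vav-Cre (edgeR adjusted p = 0.0986, DESeq2 0.00455) and 0.13 ± 0.15 in Mx1-Cre, and Vav-Cre minus Mx1-Cre was -0.87 ± 0.18 (edgeR adjusted p = 0.0968, DESeq2 0.000494). The Asns difference between the lines was -1.10 without Vav-Cre 1 (edgeR adjusted p = 0.0247) and -0.68 without Vav-Cre 2 (0.390), again with 1 Vav-Cre library left.

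**Figure D3:**
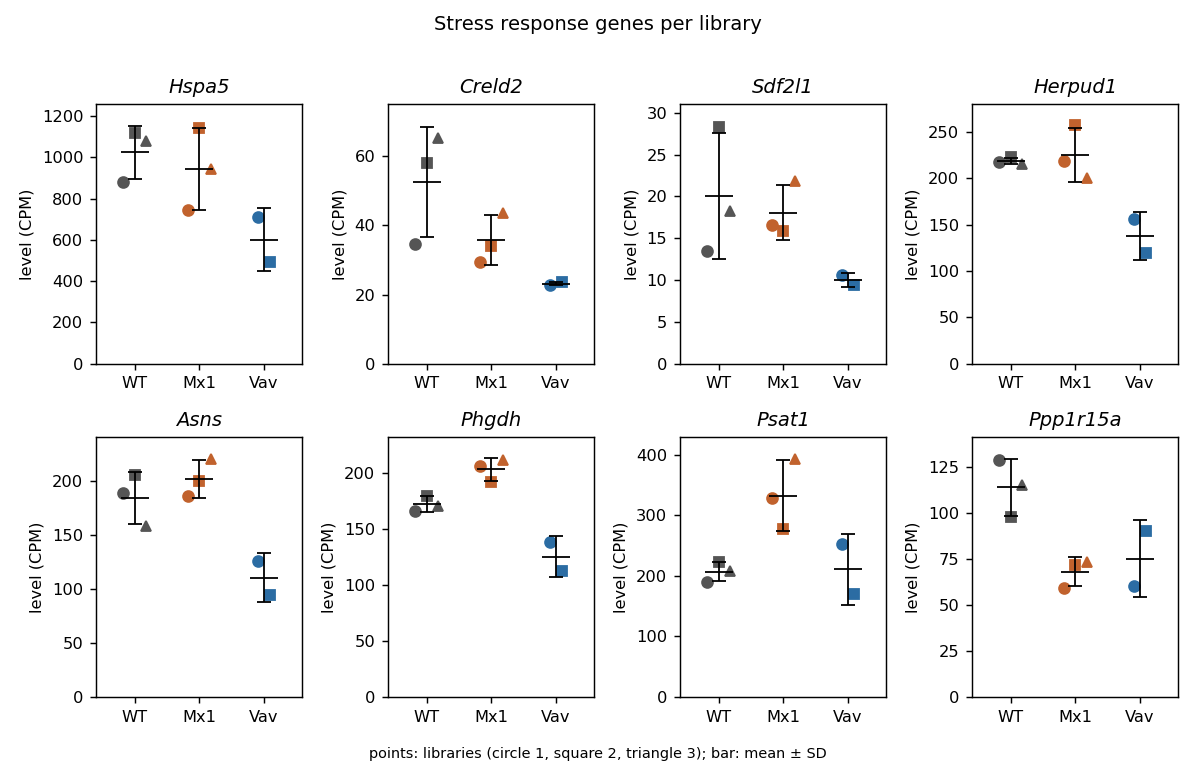
Level in CPM (vertical axis, from 0) of 8 members in wild type, Mx1-Cre and Vav-Cre libraries, with each library as a point and the mean ± SD as a bar. Both Vav-Cre points of Hspa5, Creld2, Sdf2l1, Herpud1, Asns and Phgdh lie below all wild type points, the Mx1-Cre points of Psat1 and Phgdh lie above them, and all knockout points of Ppp1r15a lie below them.

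Ddit3, which encodes the transcription factor CHOP, had 19.2, 27.5 and 29.7 CPM in wild type, 28.9, 26.6 and 30.03 with Mx1-Cre and 36.7 and 34.3 with Vav-Cre. The Vav-Cre values lay above all others (0.48 ± 0.21, edgeR adjusted p = 0.353, DESeq2 0.256), opposite to the chaperones of the same libraries. Trib3, a pseudokinase gene induced by CHOP, had 16.9, 12.1 and 7.0 CPM in wild type, 7.32, 10.3 and 6.67 with Mx1-Cre and 9.70 and 23.3 with Vav-Cre, with overlap. Chac1, a glutathione-degrading enzyme gene, had 0, 11 and 14 counts in wild type, 11, 4 and 0 with Mx1-Cre and 22 and 22 with Vav-Cre. These counts leave a 95% interval of -1.54 to 4.41 for its Vav-Cre difference. Atf3 had 1, 11 and 1 counts in wild type, 0, 0 and 1 with Mx1-Cre and 0 and 1 with Vav-Cre and was not tested.

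Over these targets, 2 of 7 lay wholly above and 1 wholly below wild type in Mx1-Cre libraries, where 10.9% and 14.8% of all genes did. In Vav-Cre libraries 2 lay above and 3 below, against 15.6% and 17.1%. The C/EBP-ATF core was present in 4 of the 8 target promoters. They are shown because the genes with a match, apart from Asns, are those with the lowest counts in this branch.
Asns (chr6:7693220-7693237, minus strand): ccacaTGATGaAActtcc
Atf3 (chr1:191183431-191183448, minus strand): cgcacTTgCATCAccaag
Chac1 (chr2:119351044-119351061, plus strand): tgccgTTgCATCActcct
Trib3 (chr2:152344034-152344051, minus strand): caggtTTaCATCAgccgg
The stretches of Atf3, Chac1 and Trib3 show the reverse complement. No match in this window was found for Ddit3, Phgdh, Psat1 or Ppp1r15a, and none of the 28 promoters held the letters TGACGTGG of the unfolded protein response element (0.676% of all promoters).

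Set side by side, the chaperone median lay below that of the ATF4 targets in each comparison with all 7 tested targets. It was -0.33 against -0.06 with both lines averaged, -0.14 against 0.13 in Mx1-Cre and -0.48 against 0.03 in Vav-Cre libraries. Vav-Cre minus Mx1-Cre, all 14 chaperone fold changes were negative (median -0.28, and -0.51 without Vav-Cre 1), while 4 of 7 targets were positive and 3 negative (median 0.14). In Mx1-Cre the order turned without Ddit3 and Atf3, without a filter on low counts and without Vav-Cre 1, with a target median of -0.22 in each case against -0.14 or -0.13 for the chaperones. Between the lines the target median without Ddit3 and Atf3 was -0.26, close to the -0.28 of the chaperones. The 3 comparisons with wild type share the same control libraries. No p is given for these medians because the members are not replicates of a condition.

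Other genes of the pathway were counted from 5 lists. Of 47 tested further ER folding and translocation genes, 3 fell and 0 rose with both lines averaged, 3 fell in Mx1-Cre and 1 fell in Vav-Cre libraries, with 0 rising in either (edgeR). The shares of all genes called were 2.65%, 2.49% and 0.511%. Calls over all genes also leaned lower, with 296 lower and 77 higher, 296 and 55, and 45 and 27 in the same order. The medians of these 47 genes were -0.09, 0.02 and -0.14 in the same order, with 25 positive in Mx1-Cre and 34 negative in Vav-Cre, beside -0.33, -0.14 and -0.48 for the 14 chaperones. That contrast was not tested. Fkbp11, an ER-anchored prolyl isomerase gene linked to secretory cells, fell from 16.1, 27.1 and 23.0 CPM in wild type to 7.23, 4.75 and 7.28 with Mx1-Cre and 5.29 and 6.01 with Vav-Cre. All knockout values lay below all wild type ones (-1.78 ± 0.27, adjusted p = 0.0111 in Mx1-Cre, and -1.96 ± 0.31, adjusted p = 0.0355 in Vav-Cre). Without wild type 2 or 3 these calls of Fkbp11 were lost, in Vav-Cre also without Mx1-Cre 1, Vav-Cre 1 or Vav-Cre 2, and adjusted p reached 0.0674 and 0.166.

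Ppic, the gene of an ER cyclophilin, fell from 129, 138 and 143 CPM to 64.3, 51.9 and 69.4 in Mx1-Cre libraries (-1.14 ± 0.17, adjusted p = 0.0111). In the Vav-Cre pair it had 83.0 and 55.3 CPM (-0.98 ± 0.20, adjusted p = 0.0631), and it fell with both lines averaged (-1.06 ± 0.15, adjusted p = 0.0111). The Mx1-Cre call of Ppic was lost without wild type 2 or 3 or Mx1-Cre 1 (adjusted p up to 0.0617), and the averaged calls of Ppic without wild type 2 or 3 (up to 0.0717) and of Fkbp11 without wild type 2 (0.0545). Fkbp14 fell in Mx1-Cre libraries from 3.25 to 7.09 CPM to 0.674 to 1.61 CPM (-2.16 ± 0.47, adjusted p = 0.0428), and Pdia5 fell with both lines averaged (-0.84 ± 0.19, adjusted p = 0.0445). Both of these calls were lost without wild type 1, 2 or 3, without Mx1-Cre 1 or 3, for Fkbp14 also without Mx1-Cre 2 and for Pdia5 also without Vav-Cre 1 or 2 or without a filter on low counts (adjusted p up to 0.189 for Fkbp14 and 0.248 for Pdia5).

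Of 38 tested further ATF4 target genes, 1 rose and 0 fell with both lines averaged and in Mx1-Cre libraries (edgeR). The shares of all genes called were 2.65% and 2.49%, so 1 of 38 was close to the background. In Vav-Cre libraries 0 were called, against 0.511% of all genes. There 1 was higher and 5 lower at an unadjusted p under 0.05, against 5.76% and 7.64%. DESeq2 called 1 higher and 1 lower, against 4.21% of all genes in either direction. In Mx1-Cre libraries 28 of the 38 were positive (median 0.17). At that p 7 were higher and 2 lower, against 6.17% and 10.5% of all genes. DESeq2 called 4 higher and 0 lower in Mx1-Cre, against 7.40% of all genes in either direction. Aars, the alanyl-tRNA synthetase gene, rose from 105, 114 and 111 CPM in wild type to 188, 168 and 195 in Mx1-Cre libraries, with no overlap (0.74 ± 0.12, adjusted p = 0.0148). It had 142 and 121 CPM in Vav-Cre libraries. Without wild type 1, 2 or 3 or without Mx1-Cre 1 the Mx1-Cre call of Aars was lost (adjusted p up to 0.0816). The averaged call (0.50 ± 0.11, adjusted p = 0.0457) was lost in 8 of 15 alternatives, among them leaving out wild type 1, 2 or 3, Mx1-Cre 1 or 3 or Vav-Cre 1 (adjusted p up to 0.188). Vav-Cre minus Mx1-Cre, 30 of these 38 genes had negative fold changes (median -0.39). Between the lines edgeR called 0 and DESeq2 6 lower, against 0.170% and 3.28% of all genes in either direction. At an unadjusted p under 0.05, 11 were lower and 2 higher, against 5.96% and 7.31% of all genes.

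In that list Cars, a cysteinyl-tRNA synthetase gene, had 69.4 to 77.2 CPM in wild type, 83.2 to 98.5 with Mx1-Cre and 58.0 and 47.5 with Vav-Cre, the same order of groups as Phgdh (Vav-Cre minus Mx1-Cre -0.80 ± 0.15, adjusted p = 0.0817). Nupr1, a stress-induced chromatin protein gene, had 34.7 to 48.8 CPM in wild type, 53.7 to 81.2 with Mx1-Cre and 63.5 and 205 with Vav-Cre (1.76 ± 0.39 in Vav-Cre, adjusted p = 0.0842). The remaining lists gave 0 edgeR calls in every comparison. Of 14 further eIF2 kinase and initiation factor genes, 1 reached an unadjusted p under 0.05 with both lines averaged and DESeq2 called 0. Of 22 further degradation genes 3 did and DESeq2 called 0, and of 17 further regulators 1 did and DESeq2 called 1. Of all genes 10.4% were lower and 6.11% higher at that p with both lines averaged, and DESeq2 called 6.77%.

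**Figure D4:**
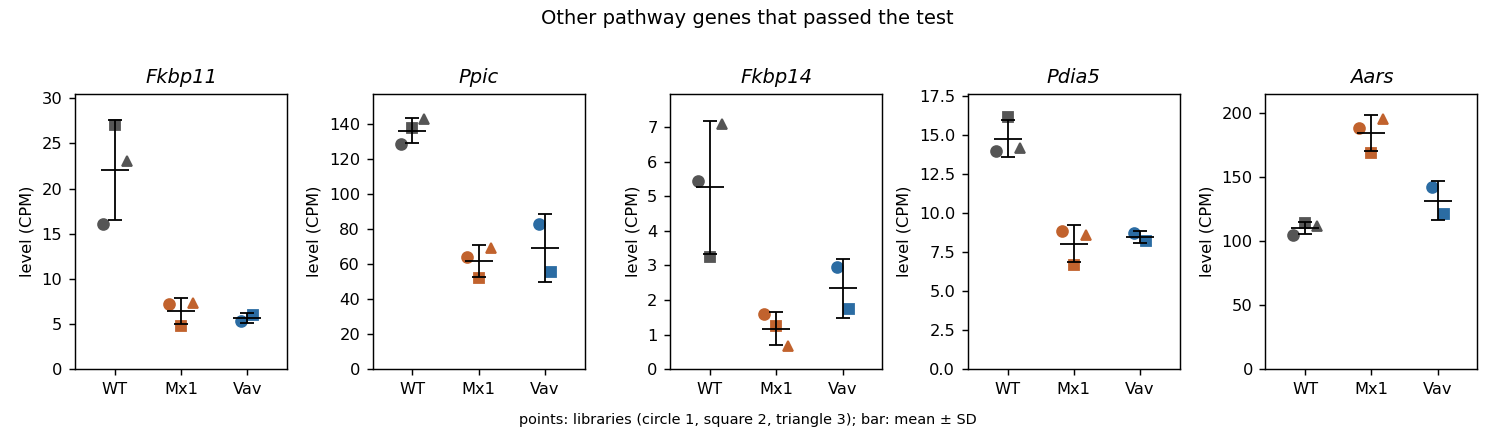
Level in CPM (vertical axis, from 0) of the 5 other pathway genes that passed the edgeR test in at least 1 comparison, with each library as a point and the mean ± SD as a bar. The knockout points of Fkbp11, Ppic, Fkbp14 and Pdia5 lie below all wild type points, and those of Aars lie above them.

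Markers of other blood cells, among them secretory cells rich in ER, were summed in the same groups. Some sums differed between the groups and others overlapped. The summed level of 11 granulocyte markers, all detected, was 910 to 1455 CPM in wild type, 291 to 688 with Mx1-Cre and 144 and 592 with Vav-Cre, with 2 called lower and 0 higher when both lines were averaged. Markers of plasma and B cells, of which 9 of 10 were tested and none was at 0 throughout, summed to 74.4 to 93.0 CPM in wild type, 62.6 to 72.1 with Mx1-Cre and 42.4 and 82.0 with Vav-Cre. Of these markers 0 were called in any comparison. The 7 mast cell and basophil markers summed to 16.2 to 20.0, 29.2 to 42.3, and 17.8 and 242 CPM in the same order, with 2 called higher when both lines were averaged. Of the 242 CPM in Vav-Cre 2, Fcer1a alone gave 209. Hdc went the other way, with 5.05 to 7.32 CPM in wild type and 1.30 and 0.558 with Vav-Cre. The median fold change of the tested markers was 0.05 with both lines averaged and -0.13 in Vav-Cre. The 6 megakaryocyte markers summed to 529 to 750 CPM in wild type, 495 to 723 with Mx1-Cre and 287 and 454 with Vav-Cre. The Vav-Cre sums lay below all wild type libraries, Mx1-Cre overlapped them, and 0 of these markers were called in any comparison. The 6 erythroid markers summed to 25.7 to 37.0, 30.6 to 47.6, and 18.01 and 22.5 CPM in that order, with 1 called lower in Vav-Cre and Hba-a1 and Hbb-b1 at 0 counts in all libraries. Within the Vav-Cre pair, the granulocyte, mast cell and basophil, megakaryocyte and erythroid sums were lower in Vav-Cre 1. The plasma and B cell sum and the chaperone median were lower in Vav-Cre 2. The part of these cells in the chaperone, Fkbp11 and Ppic values was not tested.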

How the data were processed

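The deposited count table gives raw read counts per gene symbol, and a second deposited table gives CPM, which equal those counts scaled by library total and were not tested. The tools named in the submitters' processing notes are HTSeq, TopHat, edgeR and SAMtools, and the build is mm9, and per the labels' protocols libraries were not stranded. The annotation they counted against is not given in the sources used here. Titles gave the groups. Counts were fitted with edgeR 4.0.16 (R 4.3.3) by the quasi-likelihood test across all genes, in 1 model of all 8 libraries with group as the term, after filterByExpr (minimum count 10, total 15; 14086 of 23358 genes kept) and TMM scaling. P-values were adjusted by Benjamini-Hochberg over all tested genes, and SE is the absolute log2 fold change over the square root of F. Intervals are 95%. The procedure was run on simulated counts with changes shared by all knockout libraries and larger than most described here. That run does not show the power to call smaller changes or changes in a single line. Alternatives included DESeq2 1.42.0, other scalings and filters, a replicate block and each library left out. The members and lists were chosen with earlier results of these data known. Full statistics are given for members called, and otherwise for up to 4 per role with the smallest p against wild type. Other pathway genes are named if called or among the 4 smallest p of their list. Members named beyond this are given to account for the list. Promoters come from RefSeq, build GRCm38.p6, matched by symbol, so no coordinates were moved between builds. Intervals of counts cover the spread between these libraries, whose number limits the precision.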

Additional observations from a re-analysis of the deposited data

Results flagged for a closer look

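Phgdh, the first enzyme of serine synthesis, drew attention because every Mx1-Cre library lay above and every Vav-Cre library below the wild type range. It was flagged for this order, so p-values from the same libraries are no independent check. Of all 14086 genes, 1690 lay wholly lower in Vav-Cre than in Mx1-Cre, and genes with the full order were not counted. Vav-Cre minus Mx1-Cre was -0.70 ± 0.14 on the log2 scale. The Phgdh difference was tested and did not pass after adjustment in edgeR (adjusted p = 0.0968). It passed in DESeq2 (0.000199). In edgeR adjusted p was 0.0271 without Vav-Cre 1 and 0.378 without Vav-Cre 2, and either fit rests on 1 Vav-Cre library assumed to vary like the other groups. Groups of 3 or fewer libraries were not searched for single outlying values.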

How the results depend on the processing

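The count of members called depends on the tool and the setting, and the cause was not tested. With both lines averaged it was 0 in the main analysis, 3 in DESeq2, 2 with library totals, 2 without a filter, 2 at an adjusted p of 0.1 and 0 to 1 with 1 library left out. In Mx1-Cre it was 2 in DESeq2, 1 with upper quartile scaling, 1 with library totals, 2 without a filter, 2 with only the groups compared, 2 at 0.1 and 0 to 2 with 1 library left out. In Vav-Cre it was 6 in DESeq2 and 2 at 0.1. Vav-Cre minus Mx1-Cre gave 4 in DESeq2, 1 without a filter, 2 at 0.1 and 0 to 3 with 1 library left out. With the replicate block the count was 0 in all 4 comparisons. Same-numbered libraries did not deviate together (r -0.07 to 0.13), and not every library correlated best with its own number. With the block the count over all genes was 218 in place of 373 with both lines averaged, 235 in place of 351 in Mx1-Cre, 20 in place of 72 in Vav-Cre and 9 in place of 24 between the lines. The block also ended the calls of Fkbp11 in Vav-Cre (adjusted p = 0.0898), Fkbp14 in Mx1-Cre (0.0720) and, with both lines averaged, Pdia5 (0.0951) and Aars (0.0956).

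Chaperone medians stayed negative in every alternative. With 1 library left out they ranged from -0.67 to -0.34 in Vav-Cre and from -0.51 to -0.23 between the lines. The ATF4 target median changed sign. In Mx1-Cre it was -0.22 without a filter, -0.22 without Ddit3 and Atf3 and -0.22 to 0.22 with 1 library left out. In Vav-Cre it was -0.21 without a filter, -0.22 with 1 CPM in 2 libraries, -0.22 without Ddit3 and Atf3 and -0.31 to 0.080 with 1 library left out. Between the lines it was -0.26 with 1 CPM in 2 libraries, -0.26 without Ddit3 and Atf3 and -0.18 to 0.33 with 1 library left out. Across the members with full statistics, single fold changes were followed up, after seeing the data, where the unadjusted p was under 0.05. Of these 27 fold changes, 0 changed sign and 15 were called in at least 1 of up to 16 alternatives. Of 41 others 16 changed sign and 0 were called. The sets were split by that p and refitted on the same libraries. Their counts thus follow largely from the split and do not measure robustness. The fit of only the groups compared is the main fit when both lines are averaged. Depth limits Chac1 and Atf3, with 0 to 22 and 0 to 11 counts per library.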
